A study of Mus musculus with 12 samples.

Results

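MIR, L2 and CR1 are repeat families that were already present in distant ancestors of the mouse, and the sites described here are the 3′-end count intervals whose deposited repeat family name was exactly MIR, L2 or CR1. They numbered 1036 of 178431 sites, of which 603 carried the name MIR, 347 the name L2 and 86 the name CR1. A further 43 intervals carried one of these names together with another name or with the mark for no repeat, and were not counted as members. They held 188823 counts, equal to 34.2% of the members' own, and the most abundant was an interval at the end of Fbxo2 with 73233 counts. A site is an interval of the deposited table, 25 bp wide (end minus start) for 1011 of the 1036 members and at most 50 bp.

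The libraries were made from L4 to L6 dorsal root ganglia of RiboTag mice in which Cre recombinase driven by the advillin promoter switches on an HA tag on the ribosomal protein RPL22 in sensory neurons. All groups carried these alleles. One sciatic nerve was crushed, and injured and naive ganglia of the same animals were taken 3 days later, with the ganglia of 4 mice pooled for each library. RNA was taken either after precipitation of the tagged ribosomes (IP) or from the ganglia before it (input), and QuantSeq REV libraries, which are primed with oligo-dT and read RNA at its 3′ end, were counted. There were 3 libraries in each of the 4 groups, which are called IP naive, input naive, IP injured and input injured.

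MIR elements are short interspersed repeats derived from a transfer RNA, and they were copied by the machinery of L2, a long interspersed element. CR1 is another long interspersed element, first described in birds. None of the families is known to move in the mouse today, so a transcript that ends inside one normally belongs to a host gene whose end has come to lie in the old repeat. In other mammals MIR and L2 copies are known as parts of untranslated regions, enhancers and some microRNA genes.

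A library held between 10045178 and 18687123 counts, and ribosomal RNA took 8.21% to 15.1% of them. The crush was visible in Atf3, a transcription factor gene induced by axon injury, which was higher by 5.36 ± 0.31 in IP and 5.95 ± 0.33 in input (log2 fold change ± SE, edgeR, adjusted p = 2.62e-09 and 1.85e-09). All 18 markers of sensory neurons had a level. Their summed level was 25966 to 31652 CPM (counts scaled to a common library size) in IP naive and 23784 to 29529 in IP injured libraries, against 17326 to 19658 and 15894 to 16450 in the inputs. Such levels were scaled by TMM factors throughout.

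The sequences around 3 members could be read, since these lay inside promoter windows of RefSeq (GRCm38.p6). The 2 of them that had counts are shown because the lines hold what followed the sites on the chromosome. The other, a CR1 site in Gm31870, had 0 counts and no run of A behind it. The most abundant MIR site lay in Meg3, the gene of an imprinted long non-coding RNA, at chr12:109545276-109545301 on the plus strand. The other MIR site lay in Srebf1, which encodes a regulator of lipid synthesis, at chr11:60222625-60222650 on the minus strand. In each line the capitals mark the site, with positions read as counted from 1 and both its start and its end included, so that they are 1 base longer than end minus start, and the printed stretch runs 5′ to 3′ on the strand of the gene (chr12:109545216-109545359 and chr11:60222562-60222710).
Meg3 MIR site: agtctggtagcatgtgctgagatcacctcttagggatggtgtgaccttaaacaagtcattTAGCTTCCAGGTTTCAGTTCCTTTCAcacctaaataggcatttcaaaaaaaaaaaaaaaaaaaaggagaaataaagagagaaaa
Srebf1 MIR site: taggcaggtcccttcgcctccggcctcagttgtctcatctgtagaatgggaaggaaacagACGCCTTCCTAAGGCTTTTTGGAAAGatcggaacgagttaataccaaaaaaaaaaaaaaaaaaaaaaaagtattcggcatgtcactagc

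Each of the 2 sites with counts was followed by a run of A in the genome. The run was 20 bases long and began 18 bases past the site in Meg3, and it was 24 bases long and began 19 bases past the site in Srebf1. A run of at least 20 A on the gene's strand occurred in 0.271% of the 32851 promoter windows of 300 bases, and a run of at least 10 A in 2.25%. These window values take a run anywhere in the 300 bases, not only behind a site. Of the 63 sites of any kind with at least 100 counts that could be read this way, 10 were followed by at least 10 A within 60 bases. Of the 48 among them outside repeats 2 were, and of the 13 in repeats other than the 3 families 6 were. The spacing can be set beside sites at annotated gene ends, where the poly(A) tail begins. There the gap between the edge of the site and the annotated end had a median of 17 bases over 40 MIR sites, 15 bases over 48 L2 sites and 19 bases over 10534 sites of all kinds. Whether the reads at these 2 sites were primed on the genomic A run was not tested.

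**Figure D1:**
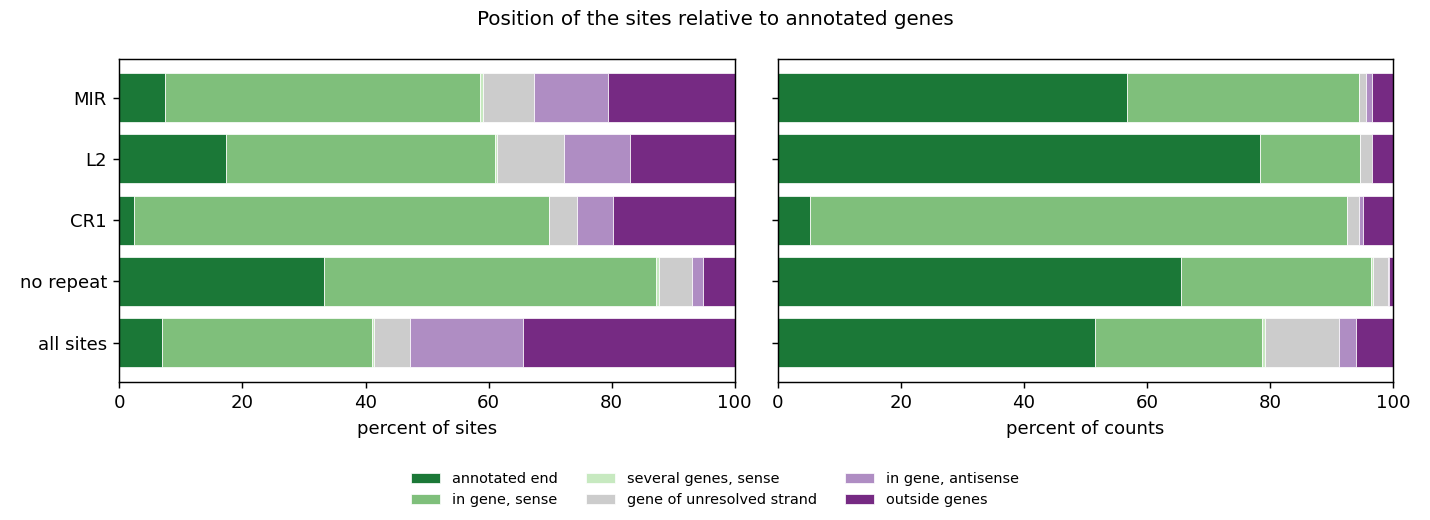
Percent of sites (left) and percent of counts (right) by position relative to annotated genes, for the 3 families, for sites outside repeats and for all sites. L2 sites at annotated 3′ ends are 17.3% of its sites and hold 78.4% of its counts, while CR1 has 5.15% of its counts there.

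The 3 families differed in where their counts lay. A site was called at an annotated end when it lay within 100 bp of the 3′ end of a gene on that gene's strand. For 2242 genes without a reference strand, the strand was taken from the counts near the gene's ends. There the class follows in part from the counts themselves. Of the L2 sites, 60 (17.3%) lay at an annotated end and held 78.4% of the L2 counts. Of the MIR sites, 45 (7.46%) did so, with 56.7% of the MIR counts. Only 2 CR1 sites (2.33%) lay at an annotated end, with 5.15% of the CR1 counts, and 87.4% of the CR1 counts came from 58 sites elsewhere in genes on the gene's strand. Over all sites of the table the values were 6.95% of sites and 51.5% of counts.

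Members that lay in a gene mostly lay on its strand. Among sites whose gene had a known strand, 356 MIR sites were sense and 73 antisense, against 213 and 37 for L2 and 60 and 5 for CR1. Sense sites made up 83%, 85.2% and 92.3% of these, compared with 69.3% over all sites and 98.1% over sites outside repeats. By counts the sense share was 99.0% for MIR, 99.9% for L2 and 99.3% for CR1. Where the counts gave the gene's strand, an abundant site at its end was sense by construction. This held for the L2 sites of Thra, Cdipt and Cyb5d1, with 69922, 29549 and 10978 of the 350528 sense L2 counts. The sense shares are therefore in part fixed by the counts. Sense sites away from the annotated end lay deep in genes, at a median of 29993 bases upstream of the end for MIR, 19778 for L2 and 59337 for CR1. The median was 15488.5 bases over all sites and 1373 over sites outside repeats.

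The share of the host gene's counts was read only for members with at least 1000 counts over all libraries. Among 42 such members at an annotated end the median was 68.7% of the counts tied to the gene, and 33 held over 50%. Choosing members by high counts favours large shares, and no share was taken for other sites under the same cut. In Cdipt, Ncdn, Prelid1 and Ddn the member held all counts tied to the gene. Among 23 members elsewhere in a gene on its strand the median was 60.5%.

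Counts were concentrated in few members. In all, 442 members (42.7%) had no count in any library, against 25.2% of all sites, and 348 had counts but did not pass the filter on low values. The remaining 246, namely 125 MIR, 109 L2 and 12 CR1 sites, were tested among 46229 sites and held 98.4% of the members' counts. The 5 most abundant sites held 33.8% of the MIR counts, 47.1% of the L2 counts and 90.5% of the CR1 counts. A single CR1 site in Pgm2l1 held 80.3% of the CR1 counts, and between 63.4% and 85.9% of them in a library. Only 2 CR1 sites had a count in all 12 libraries, against 59 L2 and 41 MIR sites.

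Some members had the same or nearly the same counts as another site. Of 369 members with at least 30 counts, 12 (3.25%) had the same count in all 12 libraries as another site, against 6.34% of all such sites. The CR1 site in Srsf10 (chr4:135867346-135867371) and a CR1 site on chromosome 12 (chr12:113380822-113380850) shared 150 counts in this way. The remaining members of the 12 matched only sites with another repeat name or with none. Among them the MIR members had at most 63 counts and the L2 members at most 33. Whether such a match reflects a shared origin was not tested. The L2 site at the end of Prelid1, with 22640 counts, had a near copy in Gm36412 (chr3:37599090-37599115) with 22132 counts, whose counts were 95.5% to 98.4% of those at Prelid1 in each library. Both are L2 sites and both enter the L2 totals, where the Gm36412 site makes up 5.98% of the L2 counts. These counts are uncertain as to their origin.

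**Figure D2:**
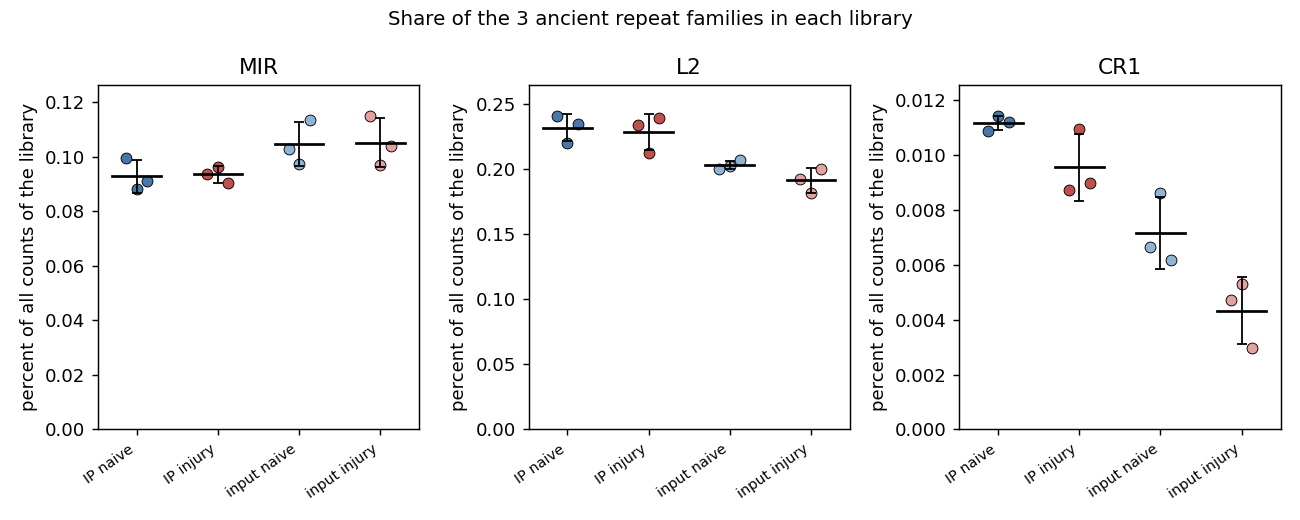
Percent of all counts of a library that fell in MIR, L2 and CR1 sites; points are libraries, lines are group means and bars are SD over 3 libraries. All 6 IP libraries lie above all 6 input libraries for L2 and for CR1.

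L2 and CR1 took a larger share of the counts in every IP library than in any input library, and MIR a smaller mean share in IP. In L2 the share was 0.241%, 0.221% and 0.235% in the IP naive libraries and 0.2005%, 0.202% and 0.207% in the input naive libraries. After injury it was 0.234%, 0.213% and 0.239% in IP and 0.193%, 0.182% and 0.2002% in input. The input injured libraries lay below the input naive ones. In CR1 the share was 0.0109%, 0.0114% and 0.0112% in IP naive, 0.00871%, 0.0110% and 0.00895% in IP injured, 0.00663%, 0.00862% and 0.00616% in input naive, and 0.00472%, 0.00529% and 0.00296% in input injured libraries. Here too the input injured libraries lay below the input naive ones. In the same input comparison 5 of 18 markers of sensory neurons were called lower after injury, where 1.4% of all genes were called, and the markers' median was -0.47 against -0.12 over all genes. Their part in the lower shares was not tested. In MIR the share was 0.0929% ± 0.0059 (SD, n = 3) in IP naive against 0.105% ± 0.0082 in input naive libraries, with overlap, and 0.0936% ± 0.0030 against 0.105% ± 0.0090 after injury, without overlap. The lower MIR mean in IP rested on the Meg3 site, and without it the MIR share was 0.0895% in IP naive against 0.0876% in input naive and 0.0900% against 0.0890% in the injured libraries, with overlap in both conditions (exact permutation p = 0.6 and 0.8). The comparisons without overlap, namely IP with input in L2 and CR1, in MIR after injury, and injured with naive input in L2 and CR1, each gave an exact permutation p of 0.1 (two-sided), the smallest that 3 against 3 libraries allow, and 0.178 after adjustment over 16 comparisons.

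The ratio of MIR to L2 counts was 0.515 ± 0.034 (SD, n = 3) in input naive and 0.3999 ± 0.013 in IP naive libraries, and it was 0.550 ± 0.041 in input injured and 0.411 ± 0.039 in IP injured libraries. The IP and input libraries did not overlap in either condition (exact permutation p = 0.1, the smallest possible, and 0.178 after adjustment). This ratio needs no scaling between libraries. It rested in part on the Meg3 site. Without that site the ratio was 0.431 ± 0.025 in input naive against 0.385 ± 0.011 in IP naive libraries, still without overlap, and 0.465 ± 0.037 against 0.395 ± 0.032 after injury, where the highest IP library (0.4298) lay above the lowest input library (0.4265, exact permutation p = 0.2).

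**Figure D3:**
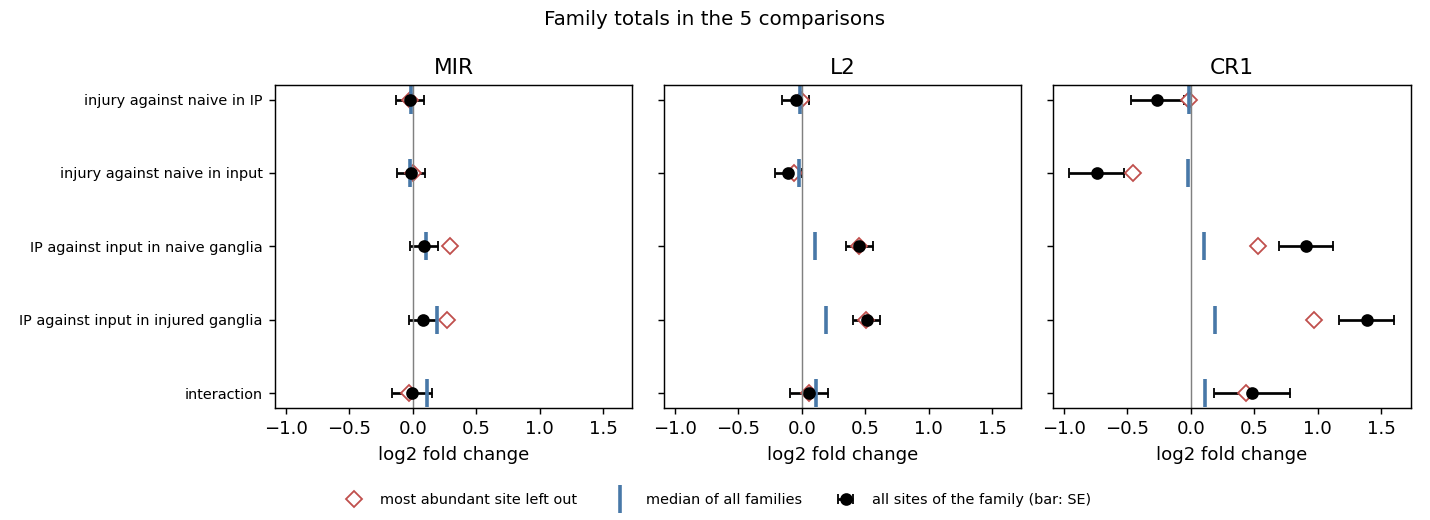
Log2 fold change of the summed counts of each family in the 5 comparisons, with SE, beside the value without the most abundant site of the family and the median of all 180 families. CR1 moves towards 0 without its Pgm2l1 site, while L2 stays at 0.45 in naive ganglia.

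Summed over their sites and tested among 180 families with edgeR, L2 and CR1 were higher in IP than in input in both conditions, where 21.1% of families were called in naive (11.7% higher, 9.44% lower) and 20.6% in injured ganglia (13.3% higher, 7.22% lower). L2 was higher by 0.45 ± 0.11 in naive ganglia (log2 ± SE, 1.37-fold, adjusted p = 0.00904) and by 0.51 ± 0.11 in injured ganglia (1.42-fold, adjusted p = 0.00257). CR1 was higher by 0.91 ± 0.21 (1.87-fold, adjusted p = 0.0092) and by 1.39 ± 0.22 (2.61-fold, adjusted p = 0.000485). MIR was at 0.09 ± 0.11 and 0.08 ± 0.11 (adjusted p = 0.632 and 0.648), and turned to -0.18 in both conditions with library totals as the only scaling and to -0.09 in injured ganglia with DESeq2 size factors. The CR1 result rested on 1 site. Without the Pgm2l1 site the CR1 total was higher by 0.53 in naive and 0.97 in injured ganglia (adjusted p = 0.393 and 0.0984). Without their most abundant sites L2 was still higher, by 0.45 and 0.50, and without the Gm36412 site by 0.47 and 0.52 (adjusted p = 0.0100 and 0.00342), while MIR without the Meg3 site was at 0.29 and 0.27 (adjusted p = 0.0738 and 0.0984). The L2 call in naive ganglia was lost without library IP naive 3 (0.39, adjusted p = 0.0594).

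The scaling moved these values together. With TMM factors the median of all tested sites was -0.14 in naive and -0.10 in injured ganglia, and with library totals it was -0.41 and -0.36. With library totals L2 was higher by 0.18 (adjusted p = 0.117) and CR1 by 0.63 (adjusted p = 0.0823) in naive ganglia, so both calls were lost there, and by 0.24 and 1.13 in injured ganglia. Relative to the median site, L2 lay at 0.60 in naive ganglia under TMM and 0.59 under library totals, CR1 at 1.05 and 1.04, and MIR at 0.23 under both. That median takes in all sites antisense in genes and outside genes, whose medians in naive ganglia were -1.69 and -1.37 with TMM factors. Over tested sites outside repeats the median was 0.33 in naive and 0.45 in injured ganglia, close to the 0.50 and 0.51 over L2 sites.

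Injury moved no family total past the threshold, and 0 of the 180 families were called in IP or in input. The injury effects in IP were -0.02 ± 0.11 for MIR, -0.05 ± 0.10 for L2 and -0.26 ± 0.21 for CR1. In input they were -0.01 ± 0.11, -0.11 ± 0.10 and -0.74 ± 0.21, and CR1 there had an unadjusted p of 0.00383 and an adjusted p of 0.173. DESeq2 gave that CR1 decrease an adjusted p of 0.0428. Without the Pgm2l1 site the CR1 value in input was -0.45. The interaction, which is the injury effect in IP minus that in input, was -0.01 ± 0.16 for MIR, 0.06 ± 0.15 for L2 and 0.48 ± 0.30 for CR1, with adjusted p of 0.89 or above.

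**Figure D4:**
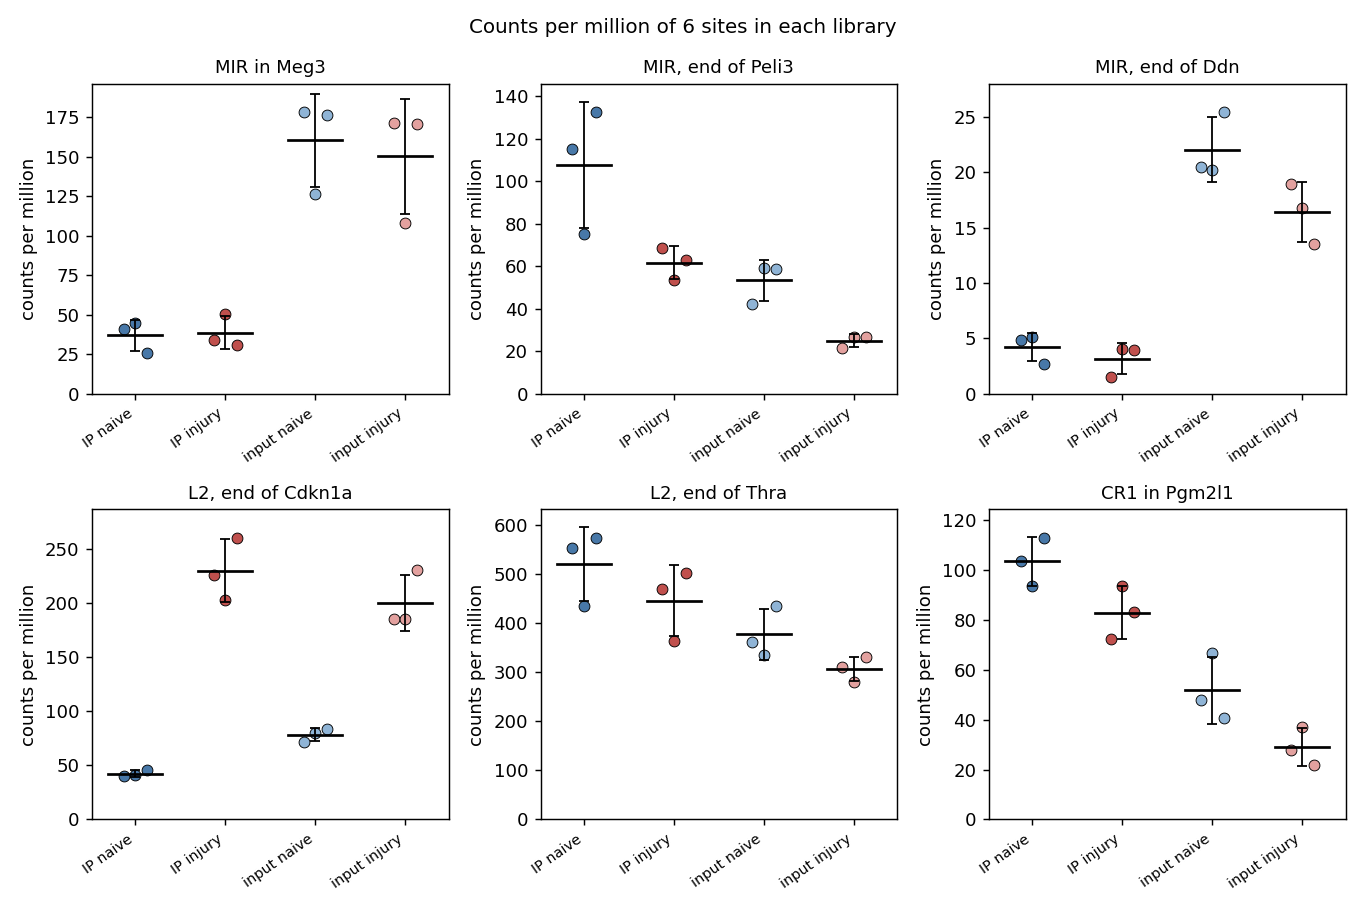
Level in CPM of 6 members in each library; lines are group means and bars are SD over 3 libraries, and each axis starts at 0. The Cdkn1a site is high in all 6 injured libraries, and the Meg3 and Ddn sites are low in all 6 IP libraries.

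Among single sites, IP and input differed at 11 members in naive and 9 in injured ganglia, and 7 members were called in both, which is 63.6% of the first list and 77.8% of the second. The 11 are 4.47% of the 246 tested members, and 4.54% of all sites were called in this comparison. In injured ganglia 5.48% of all sites were called. In naive ganglia 6 members were higher (1.72% of all sites) and 5 lower (2.82%), and in injured ganglia 5 were higher (2.88%) and 4 lower (2.6%). The 9 called in injured ganglia are 3.66% of the tested members. The shares of called members thus lay near or below those of all sites. With DESeq2 the counts came to 22 and 18. The share of all sites called by DESeq2 is not given here, so these counts cannot be set against the shares above. In total 13 different members were called, of which 9 lay at annotated ends.

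Of the MIR sites, 2 in Meg3 were far lower in IP. The abundant site shown above, 26440 bases upstream of the annotated end, held 69.3% of the counts tied to Meg3. It had 40.7, 44.7 and 26.0 CPM in IP naive, 34.2, 50.5 and 31.1 in IP injured, 179, 127 and 177 in input naive and 171, 108 and 171 in input injured libraries. All 6 input libraries were above all 6 IP libraries. The log2 fold change of IP against input was -2.11 ± 0.27 (4.33-fold lower, edgeR adjusted p = 0.00239) in naive and -1.96 ± 0.27 (3.89-fold lower, adjusted p = 0.0031) in injured ganglia. A second MIR site at the annotated end of Meg3 (chr12:109571670-109571695) had 18.8 ± 9.72 CPM (SD, n = 3) in IP naive against 52.3 ± 4.87 in input naive libraries, and 15.5 ± 2.57 against 72.5 ± 18.5 after injury. It was 2.78-fold lower in naive (adjusted p = 0.029) and 4.68-fold lower in injured ganglia (adjusted p = 0.00526). The call in naive ganglia was lost without any one library of the comparison other than IP naive 1 (adjusted p up to 0.0914). The share of Meg3 counts at the abundant site was 65.2% ± 6.81 in IP naive and 74.3% ± 5.88 in input naive libraries, and no comparison of this share passed (adjusted p = 1 in each).

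The MIR site (chr15:98803790-98803815) at the end of Ddn, the gene of dendrin, a protein of dendrites and kidney podocytes, was also low in IP. It had 4.85, 5.08 and 2.73 CPM in IP naive, 1.54, 4.05 and 3.93 in IP injured, 20.5, 20.2 and 25.4 in input naive and 18.9, 16.7 and 13.5 in input injured libraries, with no overlap of IP and input. It was 5.22-fold lower in IP in naive (adjusted p = 0.0105) and 5.16-fold lower in injured ganglia (adjusted p = 0.00983). The calls were lost without IP naive 3 (adjusted p = 0.0553) and without IP injured 1 (adjusted p = 0.0529).

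The other called MIR sites were higher in IP, and each lay at an annotated end. At Peli3, the gene of a Pellino ubiquitin ligase, the site (chr19:4929710-4929755) had 115, 75.1 and 133 CPM in IP naive, 68.6, 53.3 and 63.1 in IP injured, 42.2, 59.2 and 58.9 in input naive and 21.6, 26.7 and 26.7 in input injured libraries. IP and input did not overlap in either condition. It was higher in IP by 1.01 ± 0.23 (adjusted p = 0.0264) in naive and by 1.30 ± 0.23 (adjusted p = 0.00838) in injured ganglia, and the first call was lost without any one library of the comparison other than IP naive 2 (adjusted p up to 0.14). At Pigs, which encodes a subunit of the enzyme that attaches GPI anchors, the site (chr11:78342730-78342755) had 77.4 ± 11.5 CPM in IP naive and 27.4 ± 7.14 in input naive libraries, 2.82-fold higher (adjusted p = 0.00635). At Zmat4, a zinc finger gene, it (chr8:24063064-24063089) had 33.9 ± 6.91 and 11.9 ± 5.50, 2.85-fold higher (adjusted p = 0.0467). The Zmat4 call was lost in 8 of the 12 fits that left out 1 library (adjusted p up to 0.176). These were the fits without IP naive 1 or 3 or input naive 1 or 2, and without any one of 4 injured libraries. The injured libraries enter the filter, the scaling, the adjustment and the shared estimate of spread, but not the means compared. In injured ganglia Pigs was at 0.63 ± 0.24 (adjusted p = 0.147) and Zmat4 at 1.17 ± 0.39 (adjusted p = 0.104).

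Of the 5 most abundant MIR sites, those of Dlgap4, Sema4f and Shisa4 passed no comparison. Dlgap4 encodes a protein of the postsynaptic scaffold and Sema4f a semaphorin. The Dlgap4 site had 61.0 to 67.4 CPM as a mean in each of the 4 groups. The Sema4f site was at 38.1 ± 16.98 in input naive and 94.2 ± 3.58 in IP injured libraries, its lowest and highest groups.

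The L2 sites were led by Thra, which encodes a nuclear receptor for thyroid hormone. The site at its annotated end (chr11:98768955-98768980) had 69922 counts, 95.4% of those tied to the gene. It had 553, 435 and 575 CPM in IP naive, 470, 365 and 503 in IP injured, 361, 335 and 436 in input naive and 310, 281 and 330 in input injured libraries. IP naive library 2 lay just below input naive library 3, and after injury the groups did not overlap. The log2 difference of IP against input was 0.47 ± 0.16 (adjusted p = 0.106) in naive and 0.54 ± 0.16 (adjusted p = 0.0634) in injured ganglia. The sum over the gene, which takes in this site, was at 0.47 ± 0.15 and 0.54 ± 0.15. Tested with edgeR among 11589 genes, it was called higher in IP (adjusted p = 0.0416 and 0.0163). That call is no separate support for the site.

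The other called L2 sites higher in IP lay at Cyb5d1, Ncdn, Tex261 and Homer2. At Cyb5d1, a gene with a cytochrome b5 domain, the site (chr11:69390950-69390976) had 96.9, 79.4 and 106 CPM in IP naive, 78.4, 69.6 and 81.3 in IP injured, 47.3, 42.4 and 42.2 in input naive and 48.8, 39.4 and 44.2 in input injured libraries. Every IP library was above every input library. It was 2.14-fold higher in naive (adjusted p = 0.00567) and 1.73-fold higher in injured ganglia (adjusted p = 0.0191), the latter lost without IP injured 1 or 3 or input injured 2 or 3 (adjusted p up to 0.0815) and with library totals (adjusted p = 0.085). At Ncdn, which encodes the neuronal protein neurochondrin, the site (chr4:126743772-126743797) had 186 ± 58.5 CPM in IP injured and 96.1 ± 13.1 in input injured libraries, 1.94-fold higher (adjusted p = 0.0356), and 251 ± 56.8 and 143 ± 19.98 in the naive groups (adjusted p = 0.0722). At Tex261 (chr6:83768896-83768921) it was 1.71-fold higher in injured ganglia (adjusted p = 0.0499). The Ncdn and Tex261 calls were lost without any one library of the comparison other than IP injured 2 (adjusted p up to 0.129 and 0.193) and with DESeq2 size factors, and that of Tex261 also without any one input naive library.

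The Homer2 site (chr7:81609349-81609374) lay 8880 bases upstream of the annotated end of this gene of a postsynaptic scaffold protein. It had 27.4, 23.4 and 19.2 CPM in IP naive and 9.45, 9.30 and 9.25 in input naive libraries, with no overlap, and was 2.50-fold higher (adjusted p = 0.0287). In injured ganglia it was at 0.97 ± 0.31 (adjusted p = 0.086). The call was lost without any one library of the comparison other than IP naive 2 (adjusted p up to 0.135), and also without IP injured 1 or 3. It held 17.04% of the Homer2 counts in IP naive and 11.1% in input naive libraries (adjusted p = 1 by the test within the gene), and a site in another repeat, of the hAT-Charlie family, held more of the gene's counts.

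The L2 site in Lbp (chr2:158332273-158332298), 566 bases before the end of the gene of lipopolysaccharide binding protein, was lower in IP and held 94.7% of the gene's counts. It had 3.99, 3.03 and 0.571 CPM in IP naive, 1.94, 5.50 and 4.18 in IP injured, 16.5, 13.05 and 15.5 in input naive and 20.9, 18.7 and 19.4 in input injured libraries. No IP library reached the lowest input library. It was 5.94-fold lower in naive (adjusted p = 0.029) and 5.08-fold lower in injured ganglia (adjusted p = 0.0355). The first call was lost without any one library of the comparison other than IP naive 2 (adjusted p up to 0.0742) and without input injured 1, and the second without any one of its 6 libraries (adjusted p up to 0.182) or any one input naive library.

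Of the remaining abundant L2 sites, that of Cdipt, the gene of phosphatidylinositol synthase, was at 0.62 ± 0.21 in naive and 0.77 ± 0.21 in injured ganglia for IP against input (adjusted p = 0.109 and 0.0517). That of Prelid1, which encodes a mitochondrial lipid transfer protein, was at 0.25 ± 0.15 and 0.35 ± 0.15 (adjusted p = 0.332 and 0.192).

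The CR1 site that carried its family lay in Pgm2l1, which encodes an enzyme that makes glucose 1,6-bisphosphate and is abundant in brain, 3538 bases upstream of the annotated end (chr7:100275321-100275346). It had 104, 93.6 and 113 CPM in IP naive, 72.3, 93.5 and 83.1 in IP injured, 48.1, 66.7 and 40.7 in input naive and 27.9, 37.2 and 22.0 in input injured libraries. Every IP library was above every input library, and every naive library above every injured one of the same fraction. It was 2.00-fold higher in IP in naive (adjusted p = 0.0289) and 2.86-fold higher in injured ganglia (adjusted p = 0.00498). The first call was lost without IP naive 1 or 3 or input naive 1 or 3 (adjusted p up to 0.124), without IP injured 3 and with library totals. The site was 1 of 9 tied to Pgm2l1 and held 18.2% of their counts, against 39.5% at a site outside repeats farther downstream and 27.4% at the annotated end. These 2 sites stood at 200 and 136 CPM in IP naive against 110 and 85.5 in input naive libraries. The CR1 site made up 20.4% ± 1.04 of the gene's counts in IP naive, 18.3% ± 3.40 in IP injured, 17.7% ± 0.966 in input naive and 13.4% ± 2.10 in input injured libraries. No comparison of this share passed (adjusted p = 1 in each).

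The other abundant CR1 sites had few counts. The site at the end of Ngef, which encodes a guanine nucleotide exchange factor, had 688 counts and group means of 3.86 to 4.59 CPM. The site in Celf3, which encodes an RNA binding protein, was at 3.65 ± 2.16 in IP naive and 0.643 ± 0.850 in input naive libraries (adjusted p = 0.351). A pair of sites past the end of Ackr1, 6956 and 6870 bases downstream, had 260 and 224 counts, and each was at 0 in at least one library.

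Beside the members that differed between IP and input, many markers of cells without the tag differed as well. Of the markers with a level, all 6 of satellite glia, all 8 of Schwann cells, 5 of 6 of fibroblasts, 4 of 8 of macrophages, 4 of 5 of endothelial cells, 1 of 5 of smooth muscle cells and pericytes and 2 of 2 of erythroid cells were called lower in IP in naive ganglia, where 15.4% of all genes were called (20.3% in injured ganglia). In injured ganglia 3 of 5 endothelial and 3 of 5 smooth muscle and pericyte markers were called lower. The summed level of the Schwann cell markers was 930 to 1157 CPM in IP naive, 1069 to 1209 in IP injured, 2579 to 3584 in input naive and 2664 to 3601 in input injured libraries. That of the fibroblast markers was 134 to 285, 147 to 315, 1330 to 1691 and 1643 to 1819 in the same order, and that of the satellite glia markers 556 to 730, 814 to 1066, 1760 to 1984 and 1737 to 1966. Among others, Kcnj10, Cdh19, Col1a1, Aif1, Cd68, Hba-a1 and Hba-a2 had no level. Of the sensory neuron markers, 13 of 18 were called higher in IP in naive and 15 of 18 in injured ganglia. The part of these cells in the sites of Meg3, Ddn and Lbp was not tested, nor was that of RNA not bound to ribosomes. Between injured and naive ganglia, fewer cells of a type and less RNA per cell cannot be told apart in these bulk samples.

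After the crush 1 member passed the threshold in each fraction, the L2 site at the annotated end of Cdkn1a, the gene of the cell cycle inhibitor p21 (chr17:29100674-29100699). Of all sites, 0.324% were called after injury in IP (0.314% higher, 0.0108% lower) and 0.208% in input (0.18% higher, 0.0281% lower). The site had 40.2, 40.7 and 45.9 CPM in IP naive, 226, 202 and 260 in IP injured, 71.6, 79.8 and 83.2 in input naive and 185, 185 and 230 in input injured libraries. The injured libraries were far above the naive ones in both fractions, with no overlap. The site rose 5.44-fold in IP (log2 2.44 ± 0.16, edgeR adjusted p = 1.75e-05) and 2.56-fold in input (1.35 ± 0.15, adjusted p = 0.00214), and kept both calls when any one library of the comparison was left out (adjusted p up to 0.000191 and 0.0238). In naive ganglia it was 1.85-fold lower in IP than in input (adjusted p = 0.00724), and in injured ganglia it was at 0.20 ± 0.15 (adjusted p = 0.464).

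Cdkn1a had 1 other tied site, outside repeats and upstream of the L2 site, with 41.3% of the counts. Its mean was 38.0 CPM in IP naive, 181 in IP injured, 43.2 in input naive and 130 in input injured libraries. The L2 site held 52.6% ± 3.53 of the counts of Cdkn1a in IP naive, 55.8% ± 6.03 in IP injured, 64.9% ± 9.47 in input naive and 60.7% ± 5.26 in input injured libraries, and no comparison of this share passed (adjusted p = 1 in each).

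The injury effect on the Cdkn1a site was larger in IP by 1.09 ± 0.21 on the log2 scale, with an unadjusted p of 0.000176 and an adjusted p of 0.953 over 46229 sites. By edgeR 0 members and 0 of all sites were called for the interaction. An unadjusted p under 0.05 was found for 16 of 246 members and for 2292 of all 46229 sites. DESeq2 called 1 member, and its number over all sites is not given here. The lowest p of MIR came from a site in D130007C19Rik (chr4:123914018-123914043) with 77 counts, which had 1.54, 2.59 and 0.676 CPM in IP injured libraries and was at 0 in 7 of the other 9. The lowest p of CR1 came from a site on chromosome 12 (chr12:113381023-113381048) with 117 counts.

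No MIR or CR1 site was called after injury, and a site that missed the threshold is not thereby shown to be unchanged. The closest MIR site was that of Peli3, 1.75-fold lower after injury in IP (adjusted p = 0.274) and 2.14-fold lower in input (adjusted p = 0.102), with no overlap of the groups. Summed over the sites outside repeats and at the annotated end, the gene Peli3 fell by 1.08 ± 0.21 in input (edgeR adjusted p = 0.00641). In IP the sum was at -0.77 ± 0.21 and did not pass (adjusted p = 0.0718). Of all genes 1.4% were called in input and 1.29% in IP. The sum takes in the MIR site, which held 77.4% of the counts tied to Peli3, and is no separate support for it. The CR1 site of Pgm2l1 was 1.25-fold lower after injury in IP (adjusted p = 0.781) and 1.78-fold lower in input (adjusted p = 0.267). The CR1 site with the lowest p in IP lay 3814 bases past the end of Nlgn3 on the X chromosome and had 85 counts. The numbers of members whose naive and injured libraries did not overlap were 38 of 246 (15.4%) in IP and 28 (11.4%) in input, against 13.2% and 16.1% of all sites. For IP against input they were 42 (17.1%) in naive and 70 (28.5%) in injured ganglia, against 27.4% and 36.3% of all sites.

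**Figure D5:**
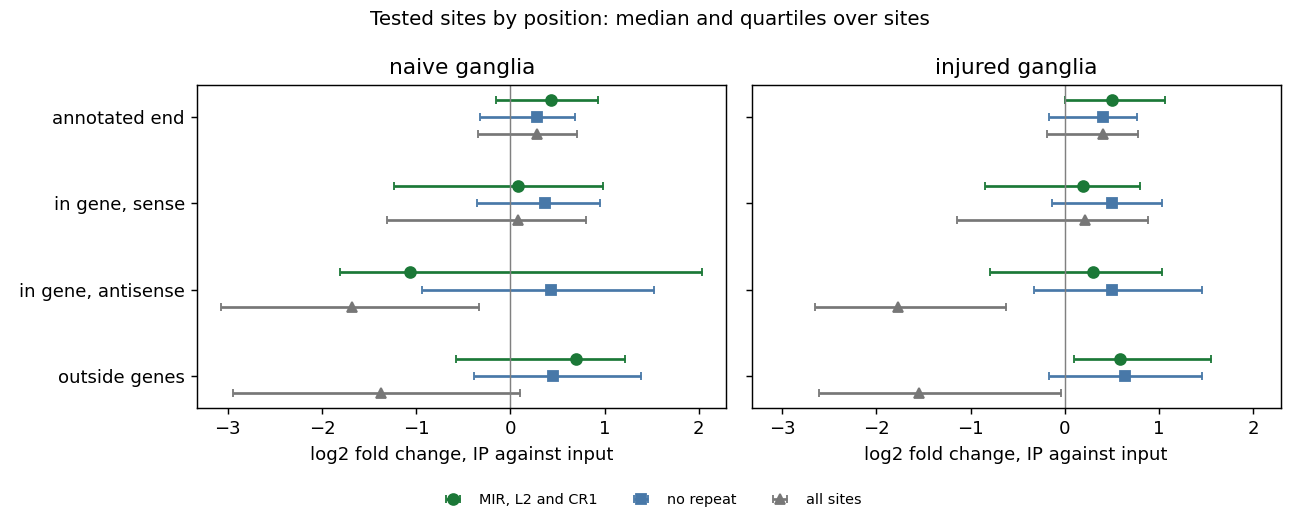
Median log2 fold change of IP against input over tested sites, with quartiles over sites, by position and for members, sites outside repeats and all sites. Outside genes the members lie at 0.70 in naive ganglia and all sites at -1.37.

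Medians were also taken by position. At annotated ends the median difference of IP against input in naive ganglia was 0.43 over 86 members, 0.28 over sites outside repeats and 0.28 over all sites. In genes on the gene's strand it was 0.08 over 104 members, 0.36 over sites outside repeats and 0.08 over all sites. Outside genes it was 0.70 over 30 members, 0.45 over sites outside repeats and -1.37 over all sites. In injured ganglia the medians outside genes were 0.58, 0.64 and -1.55. The tested sites had passed the filter on low values, so these medians describe them only, and no test was made on them. By family the median was -0.17 over 125 MIR sites and 0.50 over 109 L2 sites in naive ganglia and 0.21 and 0.51 in injured ganglia. Over 12 CR1 sites the medians were 1.80 and 0.93. The families also differed within positions. At annotated ends the naive medians were 0.03 over 37 MIR and 0.49 over 48 L2 sites. In genes on the gene's strand they were -0.34 over 54 MIR, 0.45 over 46 L2 and 1.75 over 4 CR1 sites. Outside genes they were 0.16 over 18 MIR, 0.90 over 8 L2 and 0.38 over 4 CR1 sites. The pooled medians of members thus hide differences between families. After injury the median of the 246 members was -0.11 in IP and -0.14 in input, against 0.06 and 0.06 over all sites.

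Members were also tested for a change in their share of the counts of the host gene, which asks whether a site moved apart from the other ends of its gene. This was possible for 155 members in 142 genes. By edgeR's diffSpliceDGE 0 members were called in any of the 5 comparisons. The numbers with an unadjusted p under 0.05 ran from 10 to 19 of the 155 members, and those over all sites are not given here. Of all 23894 sites tested, 0.0293% and 0.00419% were called after injury in IP and in input, 0.498% and 0.193% for IP against input in naive and injured ganglia, and 0% for the interaction. The lowest p in naive ganglia was that of a MIR site in Mical3, the gene of an actin oxidising enzyme, which was at 0 in every IP naive library and had an adjusted p of 0.129. It lay on the gene's strand and had 0%, 16.8% and 22.5% of the gene's counts in the input naive libraries.

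Genes that act on such elements were read from lists. Of 19 tested genes that silence repeats 0 passed in any comparison with edgeR, while between the fractions 2 had an unadjusted p under 0.05 in naive ganglia and 3 after injury. Their median difference of IP against input was 0.08 in naive and 0.18 in injured ganglia, against 0.28 and 0.40 over all genes. Among them Cbx3, which encodes a heterochromatin protein, was at 0.70 ± 0.24 in injured ganglia (adjusted p = 0.0507). Of 20 genes of RNA polymerase III and its factors, 2 were higher in IP in both conditions, where 15.4% of all genes were called in naive and 20.3% in injured ganglia, so the share called lay below that of all genes. Polr3g, which encodes a subunit of the polymerase, was higher by 1.31 ± 0.22 and 1.42 ± 0.22 (adjusted p = 0.000527 and 0.000212), and Ssb, which encodes the La protein, by 0.70 ± 0.24 and 1.05 ± 0.24 (adjusted p = 0.0477 and 0.00371). Of 20 genes of 3′ end processing, 3 were higher and 1 lower in IP in naive ganglia and 3 higher in injured ganglia, against the same 15.4% and 20.3% of all genes. Among these Cpsf2, a subunit of the cleavage and polyadenylation factor, was higher by 1.20 ± 0.29 and 0.92 ± 0.29 (adjusted p = 0.00839 and 0.0301), and Cstf2, a subunit of the cleavage stimulation factor, by 0.90 ± 0.26 and 0.98 ± 0.26 (adjusted p = 0.0209 and 0.0102). None of the 3 lists held a gene called by edgeR after injury, and at most 2 genes of a list had an unadjusted p under 0.05 there.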

How the data were processed

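The values are whole-number counts of each library in each interval, and these counts were taken from the deposited table without change. STAR, HTSeq and bcl2fastq 2.17 are the tools in the submitters' processing notes, with the builds mm10 and GRCm38. The way intervals were made and the handling of reads that align to several places are not given in the sources used here, nor is it stated whether positions, printed as in the table, count from 0 or from 1. Of 178451 lines, 20 were damaged and left out, none of the 3 families, and 17 unnamed columns were not used. Depth was 10045178 to 18687123 counts per library.

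The 2 blocks of the table were taken as the minus and the plus strand. Gene strands came from RefSeq sequence tables of GRCm38.p6 or else from the counts, and where both gave a strand they were the same for 99.8% of 8108 genes. Genes reached 200 bp past their end.

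Tests on sites, family totals and genes were made in R 4.3.3 with edgeR 4.0.16 (quasi-likelihood, robust, TMM, filterByExpr, all 12 libraries, 1 mean per group), shares of a host gene with diffSpliceDGE, and shares of a library with a two-sided exact permutation test. Benjamini-Hochberg adjustment ran over 46229 sites, 180 families, 11589 genes or 23894 sites in genes, with a threshold of 0.05. A gene's sum took its sites at the annotated end and those outside repeats, so a member at an annotated end is part of its gene's sum. Alternatives were DESeq2 1.42.0, other size factors, other filters, left-out libraries, the replicate number as a block, only the groups compared, names with another family, ribosomal RNA left out, and, chosen after seeing the data, library totals, the most abundant site of a family left out (for MIR also from its share and its ratio to L2) and the Gm36412 site left out of L2.

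The members and all lists were chosen with earlier results of these data known. Named were, per family, the 5 most abundant sites, the called sites with the largest differences whose groups did not overlap, up to 3 per direction and comparison, and otherwise the site with the lowest p. The Srebf1, Mical3 and duplicate sites were named after their values were seen. Over all tested sites, the deviations of same-numbered libraries from their group means correlated at -0.0269 to 0.124, and the numbers were not taken as pairs. This check cannot exclude pairing, since injured and naive ganglia came from the same animals. By number, IP libraries held 16843737, 12860794 and 18527515 counts in naive and 16740279, 12500443 and 18687123 in injured ganglia. Input libraries held 10045178, 14053174 and 12610260 in naive and 10412956, 13656228 and 13839648 in injured ganglia. The p-values take in the spread between these pools of mice and nothing wider.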

Additional observations from a re-analysis of the deposited data

How the results depend on the processing

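Of the values that answer a comparison, the replicate number as a block changed no call of a family total: L2 and CR1 stayed higher in IP with the block (0.45 and 0.93 in naive, 0.51 and 1.41 in injured ganglia), while called members numbered 14 in place of 11 in naive and 13 in place of 9 in injured ganglia, 1 and 1 after injury and 0 for the interaction. Counts of called members moved by over 1.5 times with DESeq2 (5 and 3 after injury in IP and input, 22 and 18 for IP against input in naive and injured ganglia, 1 for the interaction), without the filter on low counts (2 after injury in input, 15 in injured ganglia), with only the groups compared (5 in naive ganglia, and 1 member with a changed share of its gene in injured ganglia) and with library totals (7 in naive ganglia). With 1 library left out they ran from 1 to 2 after injury in input and from 4 to 13 for IP against input in both conditions. The shares of all sites called under these other settings are not given here. The counts of members therefore cannot be set against them. The CR1 total after injury in input was called by DESeq2 (-0.69, adjusted p = 0.0428). The L2 and CR1 totals in naive ganglia lost their calls with library totals (0.18 and 0.63), and the CR1 totals without the Pgm2l1 site (0.53 and 0.97 in naive and injured ganglia).

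Signs that turned were those of small differences that passed no test. MIR after injury turned in IP with library totals (0.0118) and no filter (0.0254), and in input with library totals (0.0133), other names included (0.0077), no Meg3 site (0.0017), DESeq2 size factors or DESeq2 (0.0417 each) and the filter of 30 counts (0.0265). MIR in IP against input turned with library totals (-0.18 in both conditions) and, in injured ganglia, with DESeq2 size factors or DESeq2 (-0.0893 each) and the filter of 30 counts (-0.0454). The interaction turned for MIR without the filter (0.13) and for L2 with DESeq2 size factors or DESeq2 (-0.0357 each). With 1 library left out, MIR after injury ran from -0.0943 to 0.0771 in IP and from -0.10 to 0.0469 in input, L2 after injury in IP from -0.12 to 0.11, L2 in IP against input in naive ganglia from 0.39 to 0.55, and the interaction from -0.0694 to 0.12 for MIR and from -0.0021 to 0.25 for L2.

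Shares of all counts rose by construction when ribosomal RNA was left out, to 0.106%, 0.104%, 0.118% and 0.116% for MIR and 0.266%, 0.255%, 0.230% and 0.212% for L2 in the order IP naive, IP injured, then input naive and injured, and to 0.0127% for CR1 in IP naive. With names of another family they were 0.140%, 0.140%, 0.138% and 0.141% for MIR, 0.331%, 0.331%, 0.284% and 0.268% for L2 and 0.0156%, 0.0132%, 0.0105% and 0.00698% for CR1. Without the Meg3 site, shares of MIR were 0.0900% in IP injured, 0.0876% in input naive and 0.0890% in input injured libraries, and the ratio of MIR to L2 was 0.385 in IP naive, 0.431 in input naive and 0.465 in input injured libraries. The cause of the other changes was not tested. Depth limits the 348 members with counts that were not tested.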
